A study of Mus musculus with 12 samples.

Results

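The collagen gene family was described on 12 arrays of RNA from limbs of mouse embryos that carried or lacked Lmx1b, a LIM homeodomain transcription factor that specifies the dorsal side of the limb. The family was taken as the 39 collagen genes with a probe set naming that gene alone in the array platform's annotation, and each was read through its brightest probe set (by the mean of the 12 arrays). All 39 were measured, among 18193 genes in all. The rule for the family used gene names, and levels decided only between probe sets of one gene. The list was drawn up with earlier results of these data known.

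The samples formed 6 groups of 2 arrays: Lmx1b +/+ (wild type, WT) and Lmx1b -/- (knockout, KO) embryos of the C57BL/6 strain at 11.5, 12.5 and 13.5 days post coitum (dpc). Limb buds were dissected with the girdle at 11.5 and 12.5 dpc, and at 13.5 dpc the sample was the distal limb, named handplate in the labels and described elsewhere in the record as zeugopod plus autopod. Forelimbs and hindlimbs were used, and each array held RNA pooled from several limbs, with different embryos in the 2 replicates of a group. The pool size is given in 2 ways, as 6 limbs for each sample and as 6, 3 and 6 limbs at the 3 stages, and this was not resolved here. The stages were scanned as separate series with both genotypes in each, so stage cannot be told apart from scan series or, for 13.5 dpc, from the dissected part. The hindlimb gene Pitx1 read from 5.76 to 6.28 on the arrays of 11.5 and 12.5 dpc and from 9.88 to 10.30 at 13.5 dpc. In WT, the mean of the hindlimb gene Tbx4 was 7.975 at 12.5 dpc and 10.06 at 13.5 dpc. That of the forelimb gene Tbx5 was 11.03 and 9.53. Whether the share of hindlimb differed between stages was not tested, so stage cannot be told apart from it either. KO and WT shared their scan series at each stage.

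Collagens are built from 3 chains that wind into a triple helix, and the genes encode the chains. Fibrillar collagens form the banded fibrils of skin, tendon, bone and cartilage. The FACIT collagens (fibril-associated collagens with interrupted triple helices) sit on the surface of those fibrils, collagen IV forms the sheet of basement membranes, and transmembrane collagens stay anchored in the cell membrane. In the embryonic limb, condensing mesenchyme turns on collagens II, IX and XI as it becomes cartilage, while collagens I, III, V, VI, XII and XIV are known from the surrounding connective tissue. The 39 genes comprised 11 fibrillar, 9 FACIT, 6 basement membrane network (collagen IV), 3 other basement membrane zone (VII, XV and XVIII), 4 transmembrane, 3 beaded filament (VI) and 3 short chain genes (VIII and X).

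Values were log2 units, so a difference of 1 is a doubling. Arrays carry no read depth, and the number of arrays limits the precision. The median of all values was 6.28, and 8 collagen genes had a mean below it: Col4a3, Col4a4, Col5a3, Col10a1, Col13a1, Col20a1, Col22a1 and Col24a1. A probe set that dim lies near background, which compresses its differences. A gene was counted as called where the limma fit across all genes gave an adjusted p under 0.05 (Benjamini-Hochberg over 18193 genes), and the p-values measure the spread between pools of embryos. In whole-limb RNA, fewer cells of a type and less RNA per cell cannot be told apart.

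Lmx1b was lower in every KO array than in every WT array of its stage, with a difference of -3.80 at 11.5 dpc, -2.66 at 12.5 dpc and -2.05 at 13.5 dpc. The adjusted p-values in stage order were 0.00872, 0.0476 and 0.153, so the gene was not called at the last stage. At 13.5 dpc the KO arrays read 7.48 and 8.88, against 10.27 and 10.19 in WT, and without replicate 2 of KO the difference was -2.75 (adjusted p = 0.0105). Whether its probe set lies in the deleted part was not known here, so this checks the labels only as far as the transcript is read. The defining markers of limb mesenchyme were present, with list means at 13.5 dpc from 11.59 to 11.63 in WT and from 11.26 to 11.53 in KO. Replicate 2 of KO also stood apart in other genes at both later stages. At 12.5 dpc it held the heat shock gene Hspa1a at 9.36, against 4.80 to 5.71 on the other arrays, and Myh3, an embryonic muscle myosin, at 9.54 against 11.44 in replicate 1. At 13.5 dpc it held the embryonic globin Hbb-bh1 at 12.91 against 10.48 in replicate 1, and Meis1, a marker of the proximal limb, at 9.46 against 7.76. Estimates that rest on these arrays are given without them below.

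**Figure D1:**
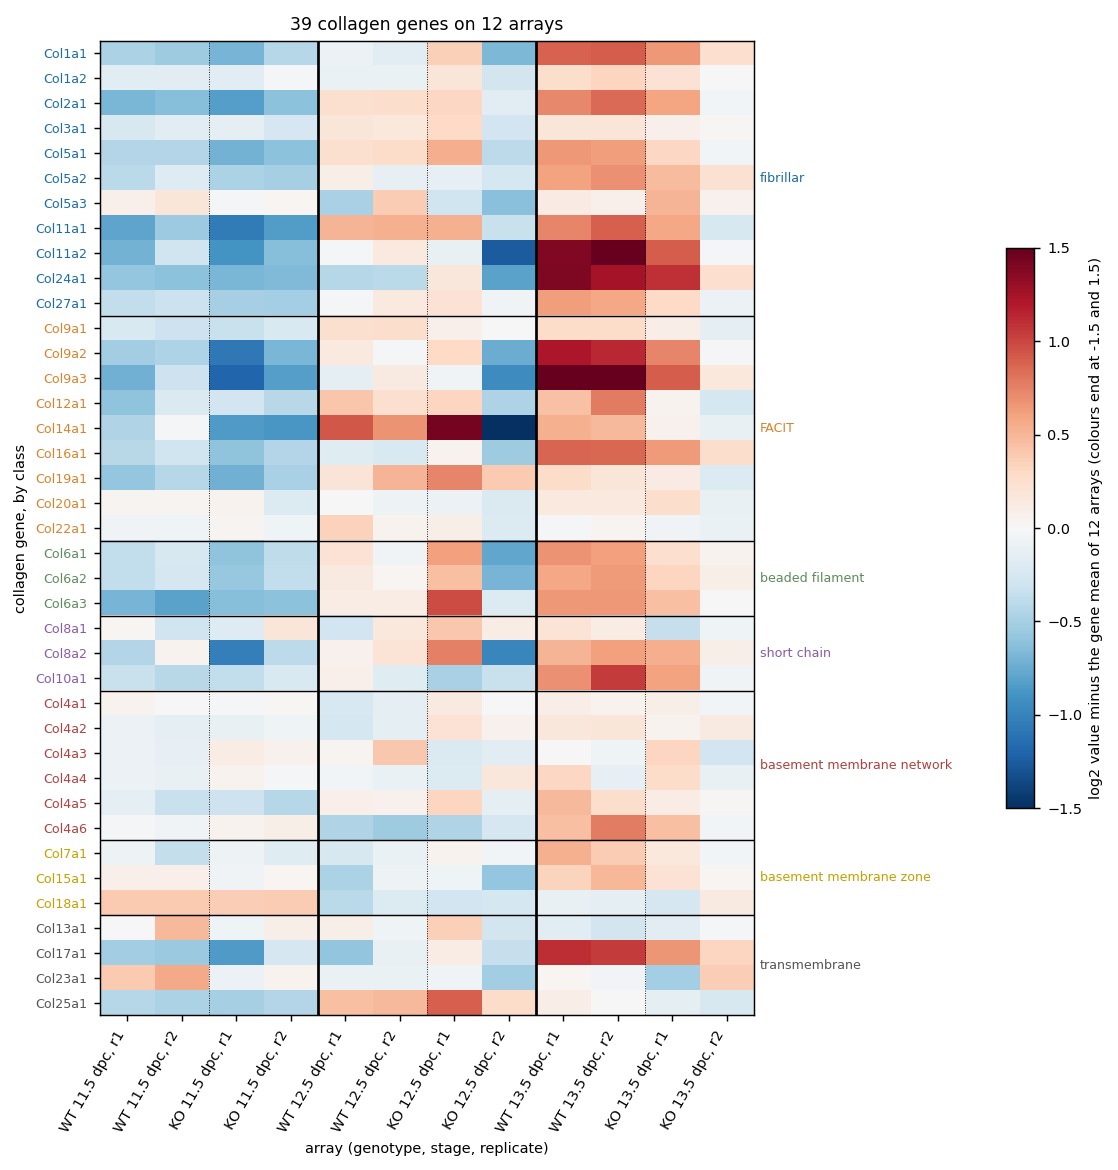
Log2 value of each of the 39 collagen genes (rows, grouped by class) on each of the 12 arrays (columns; r1 and r2 are replicates), minus that gene's mean over the 12 arrays, with colours ending at -1.5 and 1.5. Most fibrillar and FACIT rows run from blue at 11.5 dpc to red in the 2 WT arrays of 13.5 dpc, while KO replicate 2 of 12.5 dpc is blue in many of the same rows.

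The first question was whether limbs without Lmx1b held other collagen levels than WT limbs of the same stage. No collagen gene was called between KO and WT, as a mean over the 3 stages or at any stage. Among all genes, 37 (0.203%) were called in the mean contrast, most of them lower in KO (0.187% of all genes), 3 (0.0165%) at 11.5 dpc, 7 (0.0385%) at 12.5 dpc and 5 (0.0275%) at 13.5 dpc, so calls of this kind were rare throughout. At an unadjusted p under 0.05 the collagen counts were 10, 0, 3 and 14 of 39, against 1249, 298, 1981 and 1073 of all genes in the same order. The estimates still leaned to one side. In the mean contrast 34 of the 39 lay lower in KO, with a median of -0.14 against -0.02 for all genes. Of all 18193 genes 10663 lay lower.

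The lean was small at 11.5 dpc and largest at 13.5 dpc. At 11.5 dpc 27 of 39 collagen genes had a lower mean in KO (median difference -0.07, all genes -0.02), at 12.5 dpc 23 did (-0.11, all genes -0.02) and at 13.5 dpc 35 did (-0.36, all genes -0.0083). Of all 18193 genes 10976, 9877 and 9568 had a lower mean in KO at these stages, in the same order. Counted by arrays, both KO values lay below both WT values for 15 genes (38.5%) at 11.5 dpc, where 26.8% of all genes did so. The count was 5 genes (12.8%) at 12.5 dpc, below the 19.3% of all genes, and 30 genes (76.9%) at 13.5 dpc, above the 22.3% of all genes. No collagen gene had separated, lower KO values at all 3 stages, as 1.31% of all genes did. Genes with both KO values above both WT values numbered 4 at 11.5 dpc (12.8% of all genes), 3 at 12.5 dpc (15% of all genes) and 1, Col13a1, at 13.5 dpc (11.6% of all genes).

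Whether the KO difference changed between stages was tested as an interaction. No collagen gene was called for the step from 11.5 to 12.5 dpc (smallest adjusted p = 0.775) or from 12.5 to 13.5 dpc (smallest adjusted p = 0.468), and 0 of all genes were (0%), with 3 and 7 collagens and 1132 and 1546 of all genes at an unadjusted p under 0.05. From 12.5 to 13.5 dpc, the difference moved downward for 30 of 39 collagen genes, with a median of -0.31. Among all 18193 genes it moved downward for 8799, with a median of 0.0088. A larger lean at 13.5 dpc was therefore seen in the medians and was not called for any single gene.

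**Figure D2:**
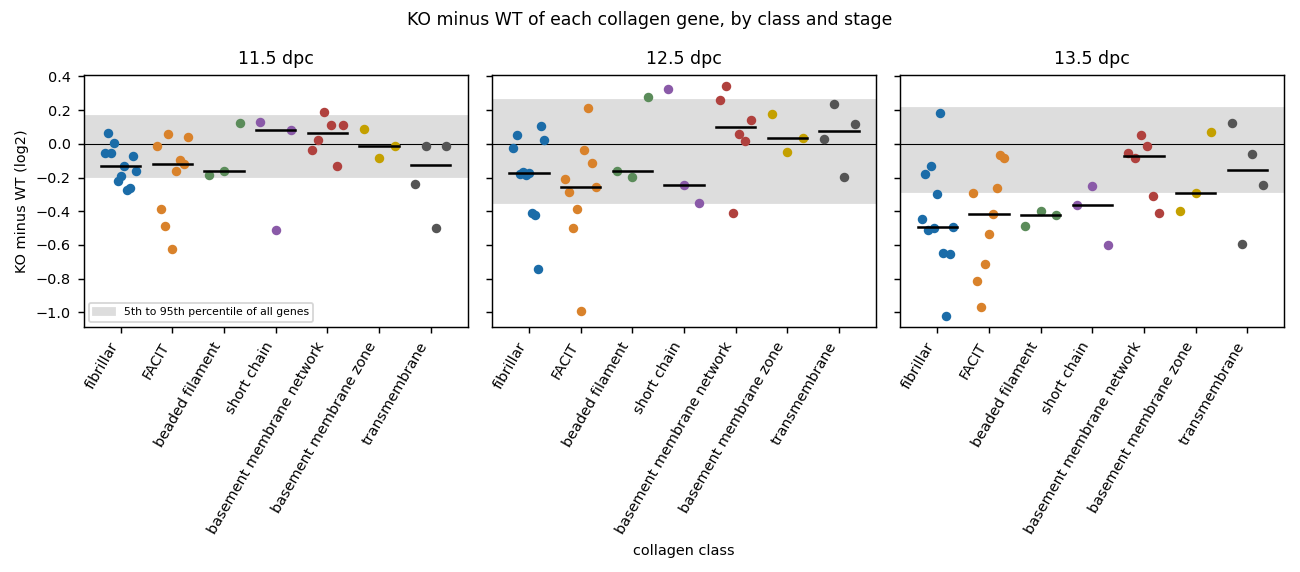
KO minus WT difference (log2, vertical axis) of each collagen gene, by class (horizontal axis) and stage (panels). Points are genes, bars are class medians, and the grey band spans the 5th to 95th percentile of all 18193 genes. The band is a spread of single genes and no yardstick for the medians. At 13.5 dpc the fibrillar median is -0.49, the FACIT median -0.41 and the collagen IV median -0.07.

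Among the fibrillar genes, 10 of 11 lay lower in KO at 13.5 dpc, with a median of -0.49. Col11a2, a chain of the cartilage fibril collagen XI, read 7.33 and 7.75 in WT and 7.15 and 7.41 in KO at 11.5 dpc. At 12.5 dpc it read 8.03 and 8.19 in WT against 7.94 and 6.80 in KO, and at 13.5 dpc 9.44 and 9.56 against 8.95 and 8.01. The genotypes overlapped at 11.5 dpc and were separate at the later stages, where the second KO array was the lower one. Its mean difference was -0.67 (SE 0.20, adjusted p = 0.472), and at 13.5 dpc it was -1.02 (SE 0.35, 95% interval -1.81 to -0.23, adjusted p = 0.738).

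Col5a2, a chain of collagen V that regulates the width of collagen I fibrils, varied less. It read 11.02 and 11.23 in WT and 10.94 and 10.92 in KO at 11.5 dpc, 11.51 and 11.30 against 11.30 and 11.15 at 12.5 dpc, and 12.02 and 12.11 against 11.89 and 11.65 at 13.5 dpc. The KO values lay below WT at 11.5 and 13.5 dpc, and at 12.5 dpc the upper KO value met the lower WT value. The mean difference was -0.22 (SE 0.07, adjusted p = 0.488). Col27a1, a fibrillar collagen of developing cartilage, had the smallest p of the family at 13.5 dpc. There it read 10.07 and 10.01 in WT and 9.74 and 9.35 in KO, a separated difference of -0.49 (SE 0.14, adjusted p = 0.544), whereas at 12.5 dpc the genotypes overlapped at 9.41 and 9.58 in WT and 9.66 and 9.39 in KO.

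Col2a1, the main fibril chain of cartilage, read 13.35 and 13.48 in WT and 13.22 and 12.59 in KO at 13.5 dpc (-0.51, SE 0.20, adjusted p = 0.805). Both chains of collagen I, the most widespread fibrillar collagen, had intervals that included 0 at 13.5 dpc. Col1a1 gave -0.45 (95% interval -1.03 to 0.14) and Col1a2 -0.18 (95% interval -0.49 to 0.12). The interval of Col3a1, which accompanies collagen I in soft connective tissue, ran from -0.47 to 0.21.

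The FACIT genes held the lowest estimates of the mean contrast beside Col11a2. All 9 were lower in KO at 13.5 dpc, with a median of -0.41. Col9a3, a chain of the collagen IX that coats cartilage fibrils, had the smallest p of the 39 in the mean contrast (-0.65, SE 0.17, adjusted p = 0.371). It read 9.51 and 9.92 in WT and 9.05 and 9.41 in KO at 11.5 dpc, 10.10 and 10.37 against 10.18 and 9.30 at 12.5 dpc, and 11.75 and 11.73 against 11.14 and 10.40 at 13.5 dpc. The genotypes were separate at 11.5 and 13.5 dpc and overlapped at 12.5 dpc, where KO replicate 1 lay between the WT arrays. At 11.5 dpc the difference was -0.49 (SE 0.30, adjusted p = 1), and at 13.5 dpc -0.97 (SE 0.30, adjusted p = 0.651).

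The other collagen IX chains ran the same way with smaller estimates. Col9a1 read 11.77 and 11.69 in WT and 11.66 and 11.77 in KO at 11.5 dpc, 12.23 and 12.26 against 12.07 and 11.998 at 12.5 dpc, and 12.27 and 12.27 against 12.09 and 11.85 at 13.5 dpc, so it overlapped at the first stage and was separate afterwards (mean -0.17, SE 0.06, adjusted p = 0.529). Col9a2 read 8.30 and 8.36 in WT and 7.76 and 8.13 in KO at 11.5 dpc, 8.97 and 8.81 against 9.13 and 8.08 at 12.5 dpc, and 10.04 and 9.95 against 9.55 and 8.81 at 13.5 dpc. It overlapped only at 12.5 dpc, where the KO arrays lay on either side of WT (mean -0.50, SE 0.18, adjusted p = 0.608).

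Col14a1, a FACIT collagen of tendon and dermis, had the largest mean estimate of the family and the largest error (-0.72, SE 0.42, adjusted p = 0.821). Its WT arrays at 12.5 dpc read 8.27 and 8.02, and its KO arrays 8.77 and 5.52. The KO values lay above and below both WT values, so the negative estimate at that stage (-0.99, SE 0.73) came from replicate 2. At 11.5 dpc Col14a1 read 6.89 and 7.32 in WT and 6.49 and 6.47 in KO, and at 13.5 dpc 7.88 and 7.83 against 7.41 and 7.22, both separated.

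**Figure D3:**
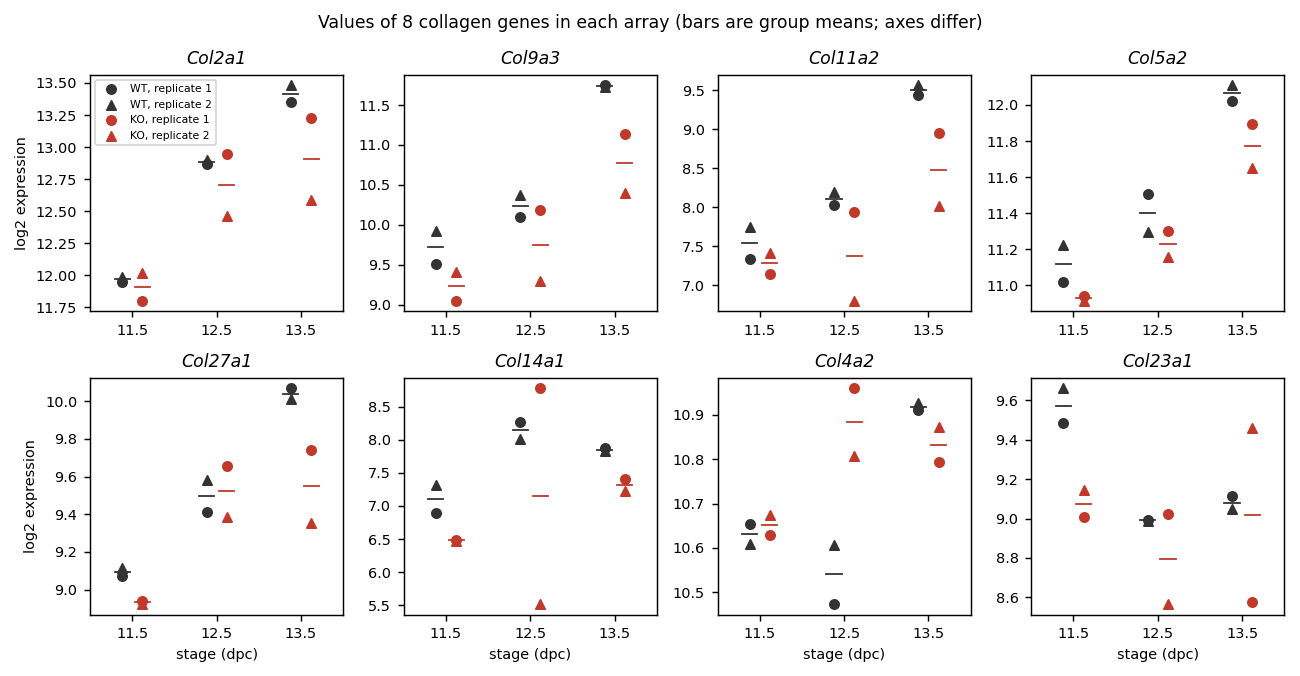
Log2 expression (vertical axis, which differs between panels) of 8 collagen genes at 11.5, 12.5 and 13.5 dpc (horizontal axis). Each marker is an array, with circles for replicate 1, triangles for replicate 2, black for WT, red for KO and bars for group means. Col14a1 at 12.5 dpc has KO arrays at 8.77 and 5.52 on either side of WT, and Col4a2 is the gene of the 8 with both KO arrays above WT at 12.5 dpc.

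Of the collagen IV genes, whose products form the basement membrane network, 5 of 6 lay higher in KO at 12.5 dpc, with a median of 0.10. The fibrillar median there was -0.17 with all arrays and 0.13 without KO replicate 2, when collagen IV was at 0.15, and the difference between the classes was not tested. Col4a2 read 10.47 and 10.61 in WT and 10.96 and 10.81 in KO at 12.5 dpc, which separated the genotypes with KO on top (0.34, SE 0.09, adjusted p = 0.22). Its partner Col4a1 read 11.24 and 11.35 in WT and 11.61 and 11.49 in KO (0.26, SE 0.09, adjusted p = 0.341). These genes encode the chains of the most common collagen IV trimer and lie head to head, and their 300-base promoter windows in the RefSeq table overlapped by 78 bases. At 11.5 dpc Col4a2 read 10.65 and 10.61 in WT and 10.63 and 10.68 in KO, and at 13.5 dpc 10.91 and 10.93 against 10.79 and 10.87, where KO lay below.

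Col4a3, a chain of the collagen IV of kidney glomerulus, lay among the dim genes and read 4.88 and 5.25 in WT against 4.62 and 4.69 in KO at 12.5 dpc (-0.41, SE 0.18, adjusted p = 0.44). At 11.5 and 13.5 dpc its arrays ran from 4.55 to 5.17. Of the genes of the basement membrane zone, Col7a1, the anchoring fibril collagen under the epidermis, had the second smallest p of the family at 13.5 dpc. It read 7.91 and 7.75 in WT and 7.53 and 7.33 in KO (-0.40, SE 0.12, adjusted p = 0.643). At 12.5 dpc it read 7.13 and 7.26 in WT against 7.42 and 7.33 in KO, the opposite order.

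The remaining classes were represented by 10 genes. Col23a1, a transmembrane collagen, had the smallest p at 11.5 dpc, where it read 9.49 and 9.66 in WT and 9.01 and 9.14 in KO (-0.50, SE 0.24, adjusted p = 1). At 13.5 dpc its KO arrays read 8.58 and 9.46 and enclosed the WT arrays at 9.11 and 9.05. All 3 collagen VI genes, whose chains form beaded microfilaments around cells, were separated and lower in KO at 13.5 dpc (median -0.42). Col10a1, the collagen of hypertrophic cartilage and a dim gene here, read 6.38 and 6.74 in WT and 6.29 and 5.64 in KO at that stage (-0.60, SE 0.20, adjusted p = 0.714).

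The KO replicates disagreed on the collagens more than on other genes. At 12.5 dpc 34 of 39 collagen genes read higher in KO replicate 1 than in replicate 2, with a median gap of 0.46 and a root mean square gap of 0.865, against 0.356 over all genes. At 13.5 dpc it was again 34 of 39, with a median gap of 0.33 and a root mean square of 0.456 against 0.267. Among all genes 52.6% and 45.1% were higher in replicate 1 at these stages. The 2 WT groups of the same stages had collagen root mean squares of 0.240 and 0.146. The largest gaps were 3.25 for Col14a1 at 12.5 dpc and 0.94 for Col11a2 at 13.5 dpc.

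**Figure D4:**
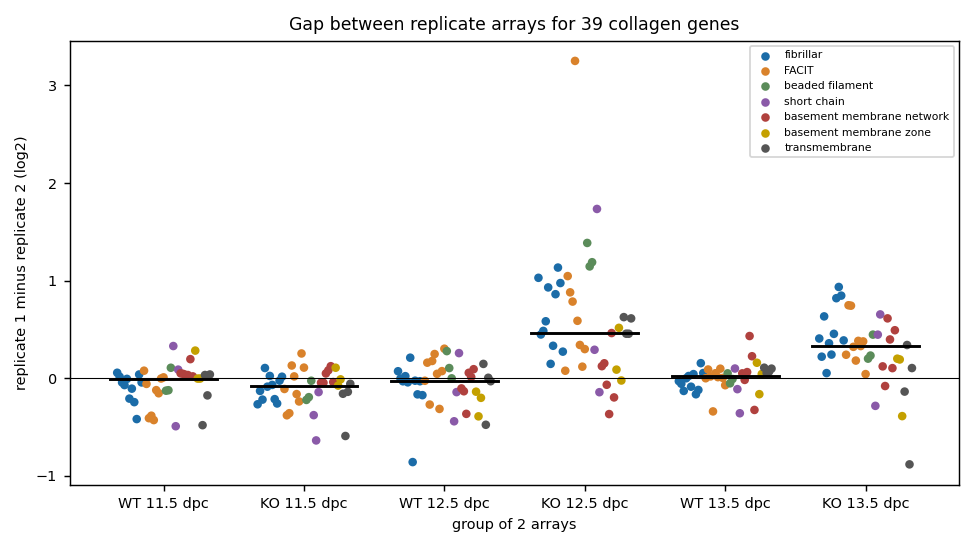
Replicate 1 minus replicate 2 (log2, vertical axis) for the 39 collagen genes in each of the 6 groups (horizontal axis). Points are genes coloured by class and bars are medians. The medians of KO at 12.5 and 13.5 dpc lie at 0.46 and 0.33, and those of the other 4 groups between -0.08 and 0.02.

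Set against the mean of the WT arrays of its stage, each KO array gave its own answer. At 12.5 dpc 10 of 39 genes were below WT in replicate 1 (median 0.22) and 30 in replicate 2 (median -0.32), while 51.1% and 55.6% of all genes were below. At 13.5 dpc 33 were below in replicate 1 (median -0.20) and 36 in replicate 2 (median -0.47), while 59.9% and 50.9% of all genes were below. Without both replicate 2 arrays the mean contrast had 22 collagen genes lower and 17 higher (median -0.0172). At 12.5 dpc the balance then turned to 10 lower and 29 higher (median 0.22), and 2 genes were called higher in KO (0.302% of all genes in this fit, and 0.011% with all arrays), Col6a3 (0.87, adjusted p = 0.0142) and Col24a1 (0.59, adjusted p = 0.0482). At 13.5 dpc 33 genes were lower, with a median of -0.20. Compared with the fit of all arrays, Col18a1 turned lower there and Col4a1, Col4a4 and Col20a1 turned higher. The interaction for the last step was -1.07 for Col6a3. This fit had 1 KO array at each of these stages, which is assumed to vary like the other groups.

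The estimates of single genes shrank too. Without both arrays the mean difference of Col11a2 went from -0.67 to -0.33, of Col9a3 from -0.65 to -0.38, of Col9a2 from -0.50 to -0.20 and of Col14a1 from -0.72 to -0.15. That of Col14a1 was -0.18 without KO 12.5 dpc replicate 2 alone, and its difference at 12.5 dpc then turned from -0.99 to 0.63 (adjusted p = 0.156). At 13.5 dpc, leaving out KO replicate 2 took Col11a2 from -1.02 to -0.55, Col9a3 from -0.97 to -0.60, Col27a1 from -0.49 to -0.30, Col2a1 from -0.51 to -0.19 and Col10a1 from -0.60 to -0.27. Each of these 5 kept its sign at 13.5 dpc. The class medians at 13.5 dpc were then -0.23 for fibrillar, -0.22 for FACIT and -0.28 for collagen VI genes.

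Leaving out the other KO array of 12.5 dpc, replicate 1, moved the estimates the other way. The mean contrast then called 8 collagen genes lower in KO, namely Col5a1, Col6a1, Col6a2, Col9a2, Col9a3, Col11a2, Col12a1 and Col14a1, with differences from -0.44 to -1.26. The contrast at 12.5 dpc called 5, Col3a1, Col5a1, Col6a1, Col6a2 and Col14a1, and each interaction called Col14a1. In the same fit 434 of all genes (2.39%) were called in the mean contrast, 515 (2.83%) at 12.5 dpc and 38 (0.209%) and 46 (0.253%) in the interactions. KO at 12.5 dpc was then 1 array, so these calls rest on the spread of the other groups and are given as values that depend on that array.

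Markers of other cell types also leaned to one side between KO and WT. The 5 cartilage markers without collagens had list means of 9.46 to 9.51 in WT and 8.34 to 8.79 in KO at 13.5 dpc, and 9.21 to 9.36 against 7.60 to 8.94 at 12.5 dpc. All 5 were lower in KO at both stages and 0 were called. At 11.5 dpc, where the collagen lean was small, all 5 were lower in KO as well (median -0.66) and 0 were called. Their list means there ran from 7.75 to 8.24 in WT and from 7.13 to 7.44 in KO, without overlap. Hapln1, a link protein of the cartilage matrix, was at -1.08 at 13.5 dpc (adjusted p = 0.5). The 5 surface ectoderm markers ran from 9.96 to 10.08 in WT and from 9.61 to 9.70 in KO at 13.5 dpc, all 5 lower. Erythroid markers ran the other way (4 of 4 measured higher in KO), from 10.59 to 10.91 in WT and from 11.20 to 12.25 in KO. A list of proximal (Meis1, Meis2), hindlimb (Pitx1, Tbx4) and forelimb (Tbx5) genes had 4 of 5 higher in KO at 13.5 dpc. Its means ran from 8.98 to 9.07 in WT and from 9.23 to 9.94 in KO. Meis1 read 7.12 and 7.01 in WT against 7.76 and 9.46 in KO, and Meis2 8.49 and 8.25 against 8.77 and 9.97. Pitx1 read 10.17 and 10.06 against 9.88 and 10.30, and Tbx4 9.997 and 10.125 against 10.11 and 10.05. The 5 limb mesenchyme markers were all lower in KO at 13.5 dpc (median -0.30, with no overlap of the list means given above). So were all 5 endothelium markers, with list means of 8.64 to 8.67 in WT and 8.45 to 8.59 in KO. All 4 macrophage markers were lower too, with 7.77 to 7.83 in WT and 7.66 on both KO arrays. The 3 neuron markers were all higher, with 6.83 to 6.92 in WT and 7.01 to 7.06 in KO. Skeletal muscle markers at 13.5 dpc were higher in KO for 4 of 5, with list means from 9.47 to 9.61 in WT and from 9.70 to 10.20 in KO, and at 12.5 dpc lower for 5 of 5, from 10.93 to 11.05 in WT and from 10.14 to 11.26 in KO. Of these genes 0 were called. At 12.5 dpc the stress genes (4 of 4 higher) ran from 6.46 to 6.81 in WT and from 7.15 to 8.61 in KO. The part of each in the collagen differences was not tested.

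The second question was how collagen genes changed as the limb developed. In WT limbs 6 of 39 were called from 11.5 to 12.5 dpc, 5 up and 1 down, and 14 from 12.5 to 13.5 dpc, all up. Of all genes 19.8% were called in the first interval (6.67% up, 13.1% down) and 25.3% in the second (14.5% up, 10.8% down). The collagen shares were 15.4% and 35.9%, below and above those backgrounds. The 2 intervals share the WT arrays of 12.5 dpc. Both later WT arrays lay above both earlier ones for 26 genes in the first interval (27.9% of all genes) and below for 7 (37.5%), and in the second above for 30 (35%) and below for 5 (33.1%). The estimates were positive for 30 of 39 genes in the first interval (median 0.32, all genes -0.03) and for 33 in the second (median 0.38, all genes 0.0058). Among all 18193 genes they were positive for 8325 and 9220.

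From 11.5 to 12.5 dpc the called genes included fibril chains of cartilage. Col11a1, which encodes a collagen XI chain, read 9.63 and 9.88 at 11.5 dpc and 10.94 and 10.96 at 12.5 dpc in WT and rose by 1.19 (SE 0.29, adjusted p = 0.0173). Col2a1 read 11.95 and 11.99, then 12.87 and 12.90, and rose by 0.91 (SE 0.20, adjusted p = 0.0122). Col9a1 read 11.77 and 11.69, then 12.23 and 12.26, and rose by 0.52 (SE 0.10, adjusted p = 0.00701). The stages were well separated for each. The adjusted p of Col11a1 went above 0.05 without any 1 of the 4 WT arrays compared (up to 0.0992), that of Col2a1 without WT 11.5 dpc replicate 1 or 2 or WT 12.5 dpc replicate 2 (up to 0.0738), and that of Col9a1 without WT 11.5 dpc replicate 2 (0.0709).

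The transmembrane collagen Col25a1, known from neurons and developing muscle, read 9.52 and 9.48 at 11.5 dpc and 10.41 and 10.44 at 12.5 dpc and rose by 0.92 (SE 0.16, adjusted p = 0.0046). Col19a1, a FACIT collagen also known from embryonic muscle, read 6.27 and 6.43, then 7.05 and 7.37, and rose by 0.86 (SE 0.16, adjusted p = 0.00644; 0.0502 without WT 11.5 dpc replicate 1). Its second brightest probe set gave 0.62, and the dimmest of its measured sets had the opposite sign (-0.14). Col18a1, the basement membrane collagen that is cleaved to endostatin, fell. It read 11.07 and 11.07 at 11.5 dpc and 10.27 and 10.48 at 12.5 dpc, a change of -0.70 (SE 0.12, adjusted p = 0.00505). Beside these, the cartilage markers Acan, Matn1 and Hapln1 also rose (3 of 5 called). Of the 5 skeletal muscle markers 4 had positive estimates, and Myh3 and Actc1 were called. The surface ectoderm markers Cdh1 and Epcam and the endothelium marker Cdh5 were called lower. Of all genes 6.67% were called up and 13.1% down. The part of tissue makeup in these collagen changes was not tested.

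The count of 6 depended on the arrays used. It was 3 without WT 11.5 dpc replicate 1 or without replicate 2 (7.7% and 4.47% of all genes), and 14 without either KO 12.5 dpc array (26% of all genes), which enter this contrast only through the pooled variance. It was 20 without both KO arrays that stood apart (32.7% of all genes). Col25a1 and Col18a1 were called under each of 22 alternatives.

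From 12.5 to 13.5 dpc, where the dissected part also changed, the 8 largest called WT rises came from fibrillar, FACIT, transmembrane and collagen IV genes. Col24a1, a fibrillar collagen known from developing bone, read 5.47 and 5.50 at 12.5 dpc and 7.30 and 7.15 at 13.5 dpc and rose by 1.74 (SE 0.30, adjusted p = 0.00309). Col17a1, the hemidesmosome collagen of basal epidermal cells, read 6.67 and 7.15, then 8.37 and 8.32, and rose by 1.43 (SE 0.22, adjusted p = 0.00209). Col4a6, a collagen IV chain of epithelial basement membranes, read 6.53 and 6.43, then 7.42 and 7.74, and rose by 1.10 (SE 0.16, adjusted p = 0.00149). Col16a1, a FACIT collagen, read 8.13 and 8.09, then 9.18 and 9.17, and rose by 1.07 (SE 0.18, adjusted p = 0.00291). These 4 were called under every alternative run for them.

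Chains of the cartilage fibril were also among the 8, with rises larger than those of Col4a6 and Col16a1. Col9a3 rose by 1.50 (SE 0.30, adjusted p = 0.00606) from 10.10 and 10.37 to 11.75 and 11.73. Col11a2 rose by 1.39 (SE 0.35, adjusted p = 0.0177) from 8.03 and 8.19 to 9.44 and 9.56, and Col9a2 by 1.11 (SE 0.31, adjusted p = 0.0258) from 8.97 and 8.81 to 10.04 and 9.95. Col1a1, which encodes the main chain of bone and tendon fibrils, rose by 1.03 (SE 0.26, adjusted p = 0.0186) from 11.27 and 11.20 to 12.25 and 12.28. All these pairs were separate. The calls of Col11a2, Col9a2 and Col1a1 were lost without any 1 of the 4 WT arrays compared, with adjusted p of up to 0.099, 0.114 and 0.0957.

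The other 6 genes called in this interval were Col4a2 (0.38), Col5a2 (0.66), Col7a1 (0.63), Col10a1 (0.93), Col15a1 (0.69) and Col27a1 (0.54). By class the calls were 5 of 11 fibrillar, 3 of 9 FACIT, 2 of 6 collagen IV, 2 of 3 basement membrane zone, 1 of 4 transmembrane, 1 of 3 short chain and 0 of 3 beaded filament genes. The count of 14 fell to 8 when replicate 1 of WT was left out at 12.5 dpc (15.1% of all genes) or at 13.5 dpc (11.5%) and to 7 when replicate 2 was left out at 13.5 dpc (9.14%). It was 22 without either KO array of 12.5 dpc (31.8%) or without both arrays that stood apart (38.1%). Surface ectoderm markers rose in the same interval (5 of 5 called, from 8.33 to 9.04 up to 9.96 to 10.08), all 5 skeletal muscle markers fell, and the hindlimb gene Pitx1 went from 5.76 to 6.28 on the earlier arrays to 9.88 to 10.30 on those of 13.5 dpc. The part of tissue makeup in the collagen rises was not tested.

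The sequence just upstream of the start is shown for 4 of the genes that rose in this interval. They set side by side a promoter without any of the searched motifs and 3 with some, of which Col17a1 and Col10a1 share TATAAA. Each is 250 bases, 5′ to 3′ on the gene's strand, from RefSeq on GRCm38.p6, with motif matches in capitals. Col24a1 lies at chr3:145292222-145292471 (plus strand), Col9a2 at chr4:121039316-121039565 (plus), Col17a1 at chr19:47692043-47692292 (minus) and Col10a1 at chr10:34389731-34389980 (plus).
Col24a1: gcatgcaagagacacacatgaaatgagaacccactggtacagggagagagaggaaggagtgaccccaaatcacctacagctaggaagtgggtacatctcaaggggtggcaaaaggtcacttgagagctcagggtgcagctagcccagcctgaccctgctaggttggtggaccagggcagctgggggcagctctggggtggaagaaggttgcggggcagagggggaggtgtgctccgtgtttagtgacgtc
Col9a2: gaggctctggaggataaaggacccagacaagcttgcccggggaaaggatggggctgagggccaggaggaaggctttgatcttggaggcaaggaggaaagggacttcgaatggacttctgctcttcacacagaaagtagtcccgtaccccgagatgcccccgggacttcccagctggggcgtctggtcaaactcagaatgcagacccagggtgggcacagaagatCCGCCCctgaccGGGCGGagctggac
Col17a1: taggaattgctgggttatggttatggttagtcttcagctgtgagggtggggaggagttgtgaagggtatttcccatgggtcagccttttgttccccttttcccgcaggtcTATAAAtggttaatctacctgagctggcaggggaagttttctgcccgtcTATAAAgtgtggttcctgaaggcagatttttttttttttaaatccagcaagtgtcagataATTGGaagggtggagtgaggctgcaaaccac
Col10a1: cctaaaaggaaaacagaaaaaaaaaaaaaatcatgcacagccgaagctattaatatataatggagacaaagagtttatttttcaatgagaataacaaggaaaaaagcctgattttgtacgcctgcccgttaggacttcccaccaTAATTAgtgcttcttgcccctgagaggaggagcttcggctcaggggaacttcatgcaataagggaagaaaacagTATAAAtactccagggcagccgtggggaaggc

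The motifs searched on both strands were TATAAA (the TATA box), GGGCGG (the GC box), CCAAT and TAATTA, a core that homeodomain proteins can bind. The Col9a2 window held GGGCGG once on each strand, at 14 and 26 bases before the start, and had 60.4% G and C. The Col17a1 window held TATAAA at 140 and 91 bases and CCAAT on the other strand at 31 bases before the start, with 46.0% G and C. The Col10a1 window held TAATTA at 106 and TATAAA at 32 bases, with 41.6% G and C. The Col24a1 window, with 58.0%, held none, which says only that these letters are not in it.

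Promoter windows were in the table for 31 of the 39 genes, with 34 windows in all. Of these, 19 held GGGCGG (32.7% of all 32851 promoters in the table), 12 CCAAT (33.8%), 5 TATAAA (12.4%) and 2 TAATTA (4.84%), the last in Col10a1 and Col11a2. A match is a description of the letters. The windows of Col1a1, Col2a1, Col4a3, Col5a2, Col9a3, Col12a1, Col14a1 and Col22a1 were not used here. Collagen genes also neighbour each other in the RefSeq order as 6 pairs, Col9a1 with Col19a1, Col3a1 with Col5a2, Col4a4 with Col4a3, Col6a2 with Col6a1, Col4a1 with Col4a2 and Col4a6 with Col4a5.

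**Figure D5:**
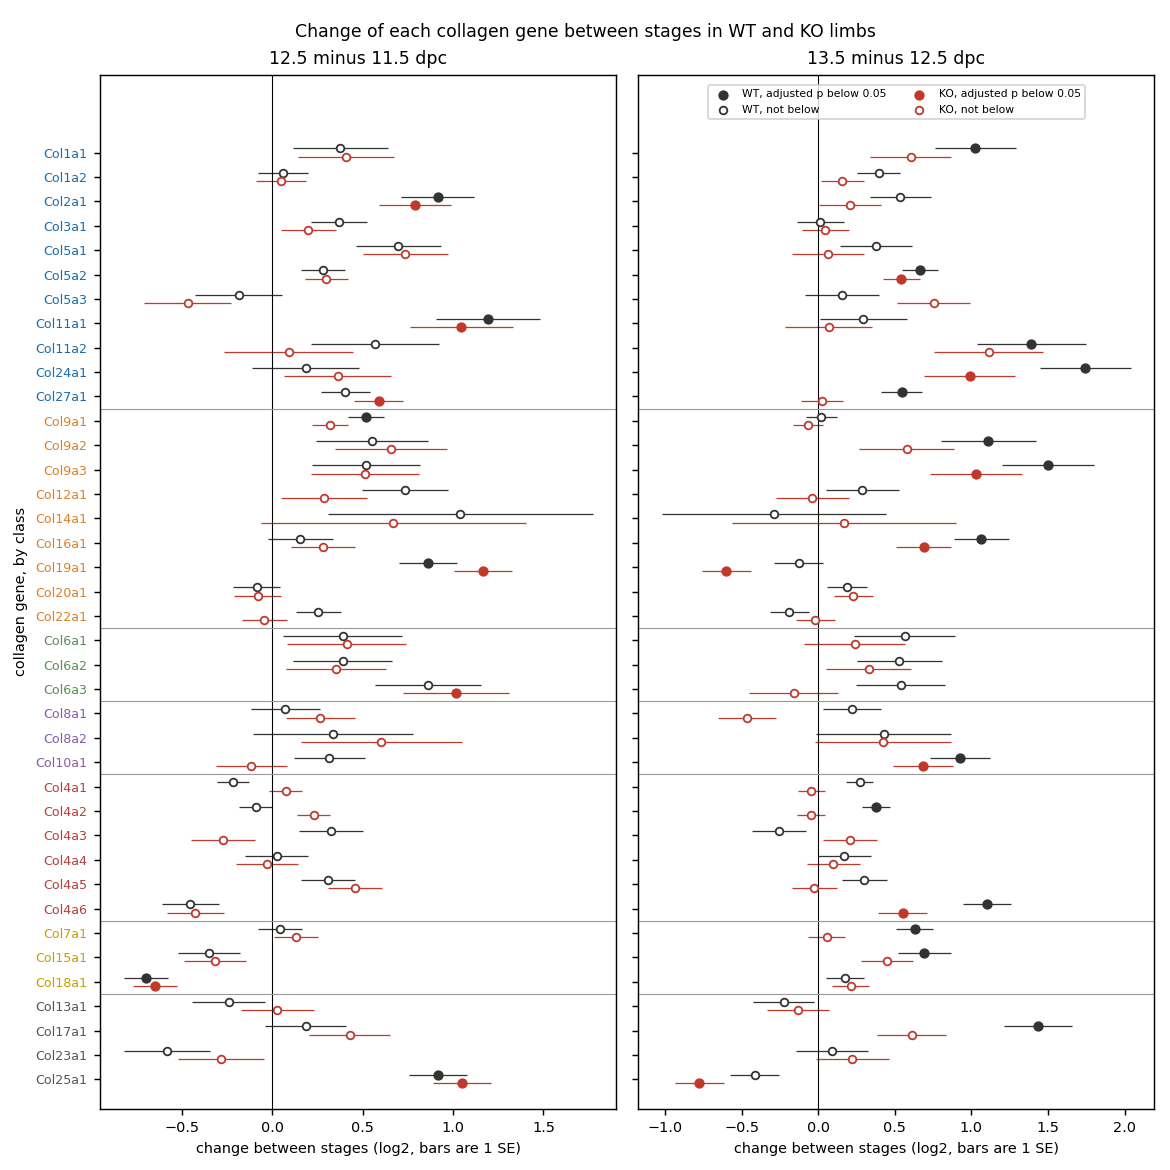
Change of each collagen gene (rows, by class) from 11.5 to 12.5 dpc (left) and from 12.5 to 13.5 dpc (right), in log2 units with bars of 1 SE. Black is WT, red is KO, and filled circles have an adjusted p under 0.05. In the right panel 14 black circles are filled, all to the right of 0, and 8 red ones, 6 to the right and 2 to the left.

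In KO limbs 7 of 39 genes were called from 11.5 to 12.5 dpc (6 up, 1 down; 16.8% of all genes, 6.22% up and 10.6% down) and 8 from 12.5 to 13.5 dpc (6 up, 2 down; 18.6% of all genes, 10.4% up and 8.22% down). Both later KO arrays lay above both earlier ones for 12 genes in the first interval (23.4% of all genes) and below for 5 (35.6%), and in the second above for 11 (29.6%) and below for 3 (22.7%). In the first interval 5 of the 7 (71.4%) were also among the 6 called in WT (83.3%): Col2a1, Col11a1, Col19a1 and Col25a1 rose and Col18a1 fell in both genotypes. Col6a3 (1.02, adjusted p = 0.0398) and Col27a1 (0.59, adjusted p = 0.0167) were called in KO alone, and their interactions were not called. The call of Col6a3 was lost without any 1 of 9 of the 12 arrays (changes from 0.42 to 1.61, adjusted p of up to 0.169), and that of Col27a1 without KO 11.5 dpc replicate 1 or 2 or KO 12.5 dpc replicate 1. The second brightest probe set of Col27a1 gave -0.08. In the second interval 6 of the 8 (75%) were among the 14 of WT (42.9%), namely Col4a6, Col5a2, Col9a3, Col10a1, Col16a1 and Col24a1.

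The 2 called in KO alone in the second interval fell. Col25a1 read 10.84 and 10.23 at 12.5 dpc and 9.81 and 9.71 at 13.5 dpc in KO, a change of -0.78 (adjusted p = 0.0102), and in WT 10.41 and 10.44, then 10.06 and 9.96. Col19a1 read 7.59 and 7.25, then 6.98 and 6.65 (-0.60, adjusted p = 0.0288), and in WT 7.05 and 7.37, then 7.03 and 7.13. The interactions of both were not called. In this interval the number of arrays whose removal ended a call was 10 of 12 for Col24a1 and 7 for Col10a1. It was 6 each for Col4a6 and Col9a3, 2 each for Col5a2, Col16a1 and Col19a1, and 0 for Col25a1. The calls of Col25a1 in KO did depend on the probe set. Its second brightest one gave 0.17 in the first KO interval and -0.023 in the second, neither called. The KO counts rested on single arrays. The first was 2 without KO 11.5 dpc replicate 1 or replicate 2 (5.43% and 2.54% of all genes), and 20 without KO 12.5 dpc replicate 2 (18.2%). The second was 18 without KO 12.5 dpc replicate 1 (20.7% of all genes), 5 without its replicate 2 (15.9%), 3 without KO 13.5 dpc replicate 1 (8.54%), 4 without either KO 11.5 dpc array (13.8%) and 5 without either WT 11.5 dpc array (14.4%). Without both arrays that stood apart the counts were 24 and 13, with 25% and 24.7% of all genes.

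The 25 collagen genes with several probe sets had 38 further ones. In the KO minus WT contrast at 13.5 dpc 32 of the 38 had the sign of the brightest probe set, and 30 did in the mean contrast. For changes between stages the further probe sets of called genes shared the sign in 5 of 6 cases and 6 of 6 in WT, and in 4 of 6 and 5 of 7 in KO. The opposite signs in KO were those of Col19a1 in both intervals, Col27a1 in the first and Col9a3 in the second. Col9a3 divided most. Its brightest probe set gave 0.52 in the first WT interval and 1.50 in the second, and the second brightest gave 1.55 and 0.21, so the timing of its rise differed with the probe set. In KO that second probe set gave 1.95 and -0.65. For Col27a1, the second probe set gave -0.0052 and 1.10 in WT and -0.08 in the first KO interval. The values above for these genes are those of the brightest probe set.

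Genes that make, process, degrade, bind or regulate collagen were counted from lists of the pathway. Of 18 biosynthesis genes (chaperones, hydroxylases, glycosyltransferases and the export factor Mia3) 17 were measured, and of 13 genes of extracellular processing and cross-linking 10 were. Of the 45 measured genes of the 5 lists 0 were called between KO and WT in the mean contrast or at any stage with all arrays. The smallest p of the biosynthesis list in the mean contrast was that of P3h1, a prolyl 3-hydroxylase (-0.30, adjusted p = 0.375). Adamts3, which removes the amino-terminal propeptide of procollagen, was at -0.36 (adjusted p = 0.381), and the cross-linking enzyme lysyl oxidase, Lox, at -0.82 (adjusted p = 0.608). Of the transcription factors, the tendon factor Mkx was at -0.78 (adjusted p = 0.239) and Sox6, a partner of Sox9 on cartilage genes, at -0.38 (adjusted p = 0.49). Without both KO arrays that stood apart Lox was at -0.38, Mkx at -0.48, P3h1 at -0.19 and Sox6 at -0.19. Without KO 12.5 dpc replicate 1, in the fit with 434 calls over all genes, P3h1, Adamts3, Lox and Mkx were called lower (adjusted p from 0.00055 to 0.0173).

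Between stages in WT, 1 of 17 biosynthesis genes was called from 11.5 to 12.5 dpc, where the lysyl hydroxylase Plod2 fell by 0.42 (adjusted p = 0.0279). Of all genes 13.1% were called lower there. From 12.5 to 13.5 dpc 14 of 17 had positive estimates and 7 were called higher (14.5% of all genes). Among the 7 were Crtap (0.87, adjusted p = 0.00379) and P3h3 (0.78, adjusted p = 0.00186), which belong to prolyl 3-hydroxylase complexes, and Plod2 (0.63, adjusted p = 0.00399). Of the 10 processing genes 6 had positive estimates in this interval and 2 were called higher, beside the same 14.5% of all genes. These were Bmp1, which removes the carboxy-terminal propeptide (0.54, adjusted p = 0.00214), and the lysyl oxidase Loxl1 (0.76, adjusted p = 0.0163). In KO 4 of 17 biosynthesis genes were called higher in the second interval (10.4% of all genes), namely P4hb, Crtap, P3h3 and Plod3.

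Among all genes, 6.67% were called up and 13.1% down in the first WT interval, and 14.5% and 10.8% in the second. Of the 6 degradation genes Mmp2, a gelatinase, fell by 0.48 in the first WT interval (adjusted p = 0.0133) and rose by 0.78 in the second (adjusted p = 0.00123). Ctsk, a collagen-cleaving cathepsin, and Mmp14 also rose in the second, by 0.62 (adjusted p = 0.00617) and 0.46 (adjusted p = 0.0425). Of 6 receptors measured, Itga10, the integrin chain of chondrocytes that binds collagen II, fell by 0.43 (adjusted p = 0.018) and then rose by 0.76 (adjusted p = 0.0012), and Ddr1, a collagen-activated kinase, rose by 0.61 in the second interval (adjusted p = 0.0143). Of 6 transcription factors Sox5 rose in the first (0.66, adjusted p = 0.0141) and 0 were called in the second. In KO, Mmp2 likewise fell and then rose (-0.51, adjusted p = 0.012, and 0.56, adjusted p = 0.00801).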

How the data were processed

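The authors deposited log2 expression values of 45101 probe sets on the 12 arrays, which the submitters' processing notes list as made with RMA; no version is given in the sources used here. Scanner files were not used. Sorted columns differed by at most 0.242 at any rank, so the arrays had nearly the same distribution. The 64 control probe sets were left out. Of the others, 34945 named 1 gene in the platform's annotation, 932 named several and 9160 were without a listed gene. Symbols were checked through gene identifiers against a RefSeq table (34741 probe sets matched, 0 symbols changed). The brightest probe set of each gene was kept, which left 18193 genes.

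Group means of all 12 arrays were fitted with limma 3.58.1 in R 4.3.3 (lmFit, contrasts.fit, eBayes; 6 residual and 4.22 prior degrees of freedom), in 10 contrasts, each adjusted by Benjamini-Hochberg over all genes. Only the fitting step was tested on simulated data. The planted changes were larger than any collagen difference between KO and WT given here, so recovery at those sizes was not tested. Alternatives covered the probe set rule, filters, scaling, array weights, pairing and left-out arrays. Genes named were those called, the 5 with the smallest p in the mean contrast, the 3 at each stage, and up to 8 WT changes in each direction. Other members were named for their class, and Col14a1 for its size, after the values were seen. The collagen genes, pathway lists and markers were chosen with earlier results of these data known. Pathway genes not analysed here were Fkbp10, Adamts2, Adamts14, Loxl2, Itga11 and Runx2.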

Additional observations from a re-analysis of the deposited data

How the results depend on the processing

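With 2 arrays a group and 6 residual degrees of freedom, differences of the size seen between the KO replicates could not be told from differences between genotypes. The collagen count of 0 between KO and WT stayed 0 under 20 of 21 alternatives in the mean contrast, 22 of 22 at 11.5 dpc, 20 of 22 at 12.5 dpc and 22 of 22 at 13.5 dpc. Leaving out 1 array at a time gave 0 to 8 calls in the mean contrast, 0 to 5 at 12.5 dpc and 0 to 1 in each interaction. Leaving out both KO arrays that stood apart gave 2 calls at 12.5 dpc and 1 in the second interaction. The median difference ran from -0.22 to -0.06 in the mean contrast, from -0.12 to -0.05 at 11.5 dpc, from -0.32 to 0.22 at 12.5 dpc and from -0.47 to -0.20 at 13.5 dpc over the single arrays left out. Without both KO arrays that stood apart it was 0.22 at 12.5 dpc, a reversal, and -0.20 at 13.5 dpc.

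Counts of changes between stages moved more. Leaving out 1 array at a time gave 3 to 14 and 7 to 22 calls in WT, and 2 to 20 and 3 to 18 in KO. Using only the 4 arrays compared gave 17 and 22 in WT and 0 and 0 in KO, where 4 arrays leave 2 residual degrees of freedom. Array quality weights gave 13 in the first WT interval and 1 in the second KO interval, the second brightest probe set 10 in the first WT interval, and the mean of all probe sets 4 in the second KO interval. Without both arrays that stood apart, the counts were 20 and 22 in WT and 24 and 13 in KO. With the second brightest probe set the change of Col27a1 in the first KO interval was -0.081 and that of Col9a3 in the second -0.65, both reversed. The causes were not tested.

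Replicate numbers were not taken as pairs, since same-numbered arrays correlated from -0.19 to 0.19 in their deviations from the group means. With the replicate block the second KO interval had 5 calls in place of 8, and the other collagen counts stayed within 1.5 times. The count over all genes was 37 in the mean contrast and ran from 6 (with the block) to 434 (without KO 12.5 dpc replicate 1). In the order 11.5, 12.5 and 13.5 dpc, the other KO minus WT counts over all genes ran from 0 to 14, 1 to 515 and 0 to 56.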
